A study of Mus musculus with 12 samples.

Results

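The 10 genes described here bear on the specialised endothelium of brain vessels, the blood-brain barrier: Cldn5, Ocln, Tjp1, Mfsd2a, Cav1, Plvap, Abcb1a, Abcg2, Slco1a4 and Sox17. Not all of them mark it, as Plvap is a gene of leaky vessels and many other cell types make Tjp1. The 10 genes were chosen by name, for what is known of the barrier, though with earlier results of these data known. They are 10 of the 48709 genes in each deposited table. RNA came from cells selected by antibody to ACSA-2, which astrocytes carry on their surface. They were taken 24 h after tMCAO (transient middle cerebral artery occlusion), a mouse stroke model in which blood flow to 1 hemisphere is blocked and then restored. There were 12 libraries in 4 groups of 3: the ipsilateral (occluded side) and contralateral hemispheres of the KO mice 295, 298 and 300, and those of the WT mice 296, 297 and 474. All 6 mice were C57BL/6, aged 90 to 120 days after birth, and carried 1 copy of Gfap-CreERT2 with floxed alleles of the targeted gene. KO mice received tamoxifen, which activates the Cre, and WT mice received corn oil. The drug and the deletion therefore cannot be told apart, and because the Gfap promoter drives the Cre, endothelial cells are not its intended target.

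In most organs small vessels are leaky, whereas brain endothelium is sealed by tight junctions, moves little cargo in vesicles and carries pumps that return drugs and metabolites to the blood. Wnt/beta-catenin signalling from neural tissue installs and keeps this state, holding Plvap low and the junction and transporter genes high. Astrocyte end-feet cover the vessels, so fragments of endothelium can be carried along when astrocytes are isolated.

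Cldn5 encodes the claudin that seals the tight junctions of brain endothelium, Ocln encodes occludin, a transmembrane protein of the same junctions, and Tjp1 encodes ZO-1, the scaffold that ties them to actin and that many other cell types also make. Mfsd2a carries lysophosphatidylcholine lipids into the brain and restrains vesicle traffic, Cav1 forms the coat of caveolae, and Plvap builds the diaphragms of caveolae and of the pores of leaky vessels. Abcb1a (P-glycoprotein) and Abcg2 are efflux pumps, Slco1a4 takes up organic anions, and Sox17 is an endothelial transcription factor linked to Wnt signalling in brain vessels. All are protein-coding genes of mm10, with GENCODE M21 coordinates chr16:18776847-18778262 for Cldn5, chr13:100496507-100552718 for Ocln, chr7:65296165-65527781 for Tjp1, chr4:122946850-122961188 for Mfsd2a and chr6:17306335-17341452 for Cav1. Plvap lies at chr8:71497765-71511752, Abcb1a at chr5:8660077-8748575, Abcg2 at chr6:58584523-58695676, Slco1a4 at chr6:141805440-141856199 and Sox17 at chr1:4490931-4497354.

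Libraries held 11187723 to 15780600 counts of reads assigned to genes, and the 20 genes of a pan-endothelial list (Pecam1, Cdh5 and others, none of them among the 10) took 0.212 to 0.371% of them. Astrocyte markers were present in every library, with a summed level of 4885 to 17059 TPM over 10 genes (TPM, a level scaled to library size and transcript length). The pan-endothelial list summed to 1697 to 2719 TPM and an oligodendrocyte list of 10 genes to 4593 to 18709 TPM. None of these 3 lists had a gene without counts in any library. Mouse 296 showed a male pattern, with 4 and 8 Xist counts and 2917 and 2733 counts of Y-linked genes in its ipsilateral and contralateral libraries, while the other 10 libraries showed a female one, so the WT group held both sexes. The KO ipsilateral library of mouse 300 stood apart in its microglial list, at a mean of 3.33 log2 CPM (counts scaled to library size) against 6.41 and 6.05 in the other KO ipsilateral libraries, and it had the highest pan-endothelial mean of all 12 libraries, 7.17 log2 CPM.

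All 10 genes were detected in all libraries, at levels that spanned the abundant and the nearly silent. Over the 12 libraries Mfsd2a averaged 442 TPM and Cldn5 424 TPM, and their ranges overlapped. Slco1a4 (134 TPM), Tjp1 (126 TPM) and Abcb1a (117 TPM) formed a middle tier whose ranges also overlapped. The lowest Cldn5 level, 249 TPM, was above the highest Slco1a4 level, 244 TPM, whereas the lowest Mfsd2a level, 203 TPM, was not.

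Cav1 averaged 43.1 TPM and Ocln 40.6 TPM, followed by Sox17 at 26.6 TPM and Abcg2 at 20.1 TPM, and the ranges of neighbours in this order overlapped, as those of Abcb1a and Cav1 did not. Plvap was lowest, at a mean of 8.12 TPM and 16 to 169 counts per library, and varied most, with a coefficient of variation of 78.3% over the 12 libraries against 18.3% for Tjp1, the steadiest of the 10. The Slco1a4 counts were 0.598 times the reads that its deposited RPKM implies, in a range of 0.597 to 0.600 over libraries, and those of Sox17 0.910 times and of Abcb1a 0.966 times, while the other 7 genes stood at 0.999 or 1. For these 3 genes the counts tested and the levels in TPM thus differ by a share that was nearly constant over libraries.

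**Figure D1:**
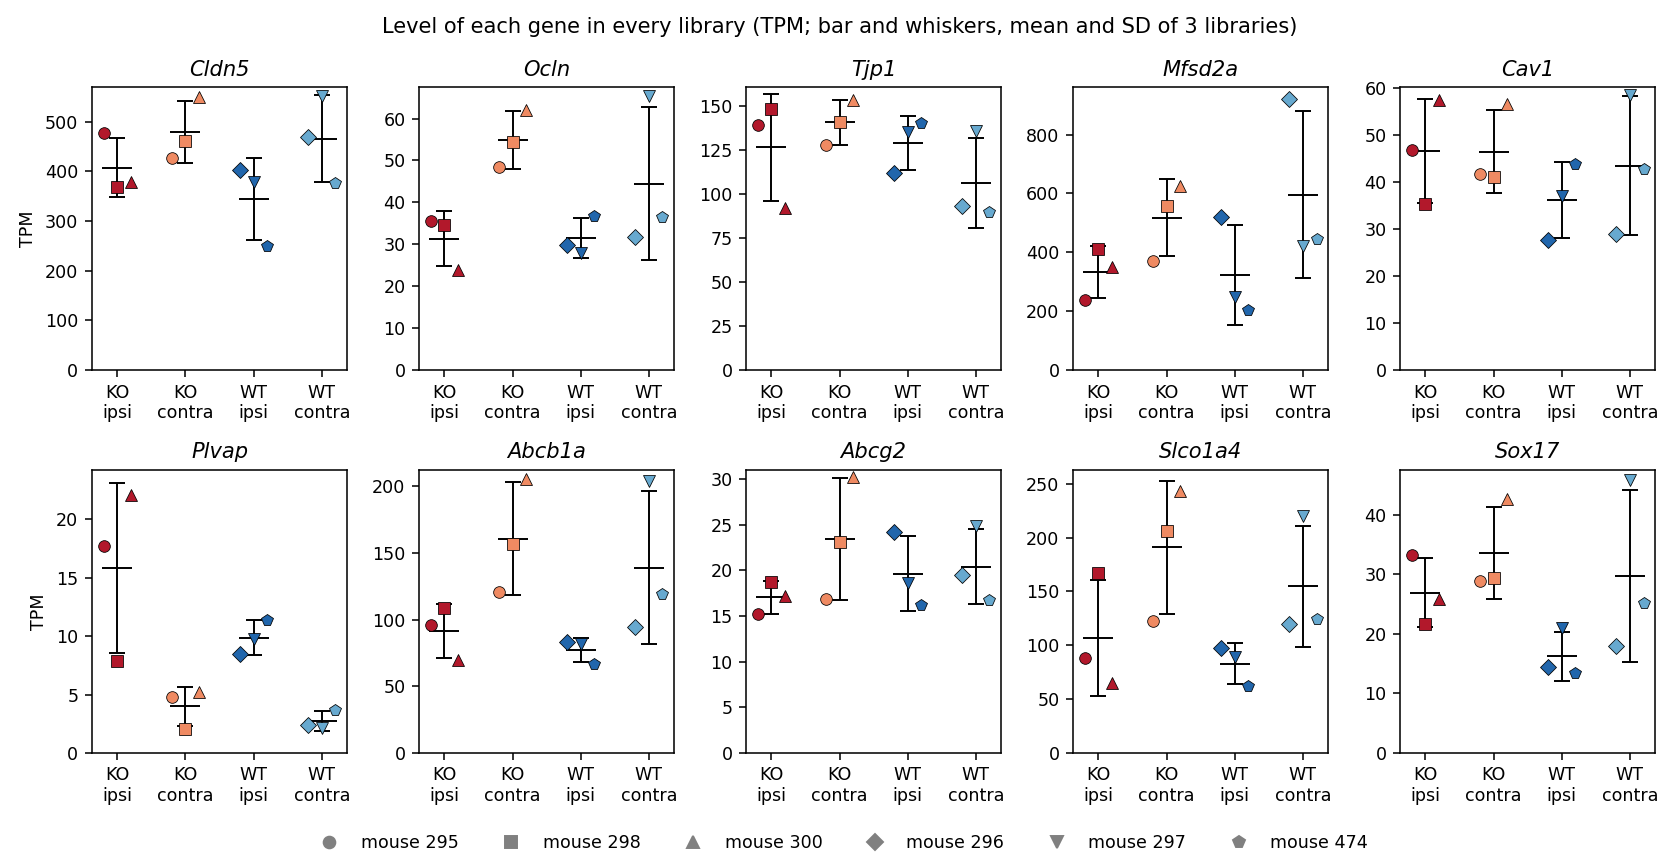
Level of each gene in TPM (vertical axes, each from 0) in the 12 libraries, by group along the horizontal axis, with 1 marker shape per mouse and the mean and SD of 3 libraries as bar and whiskers. Plvap is higher in all 6 ipsilateral libraries (7.85 to 22.1 TPM) than in all 6 contralateral ones (2.09 to 5.17 TPM), and Abcb1a is lower in the ipsilateral than in the contralateral libraries of KO mice and of WT mice.

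The first comparison asked how the ipsilateral hemisphere differed from the contralateral one, in KO mice, in WT mice and averaged over both. In the average, Plvap rose to about 4 times its contralateral level, and Abcb1a, Slco1a4 and Ocln fell to between 0.569 and 0.661 of theirs. Cldn5, Tjp1, Mfsd2a, Cav1, Abcg2 and Sox17 did not pass an edgeR adjusted p of 0.05. So 4 of the 10 genes passed, 1 higher and 3 lower, where 33.2% of the 15571 genes tested passed (17.1% higher and 16.1% lower). In KO mice alone only Plvap passed, against 6.29% of all genes, and in WT mice Plvap and Abcb1a passed, against 19.2%. The median log2 fold change of the 10 genes was -0.40 in the average, -0.22 in KO and -0.50 in WT mice, where the median over all genes tested was -0.03, -0.01 and -0.06. In bulk RNA of this kind, fewer endothelial cells and less of a transcript per endothelial cell cannot be told apart.

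Plvap, the gene of leaky vessels, had 17.7, 7.85 and 22.1 TPM in ipsilateral libraries of KO mice 295, 298 and 300, against 4.75, 2.09 and 5.17 TPM in their contralateral ones. In WT mice 296, 297 and 474 it had 8.45, 9.77 and 11.4 TPM ipsilaterally, against 2.36, 2.15 and 3.71 TPM contralaterally. Every ipsilateral library was above every contralateral library, as was the case for 5.84% of all genes in CPM, and the KO ipsilateral library of mouse 298 was the lowest on its side. The log2 fold change was 2.18 ± 0.46 in KO mice (SE, 3 libraries a group, edgeR adjusted p = 0.0205), 1.78 ± 0.47 in WT mice (edgeR adjusted p = 0.0216) and 1.98 ± 0.33 in the average (edgeR adjusted p = 0.0012). Within mice the log2 ratio of the hemispheres lay between 1.45 and 2.45, higher in 6 of 6, as were 19% of all genes. The counts were small, 67 to 169 in the KO ipsilateral libraries against 16 to 47 in the KO contralateral ones, and 65 to 93 in the WT ipsilateral libraries against 16 to 29 in the WT contralateral ones.

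The average held in every fit run, at 1.63 to 2.18 on the log2 scale. Within each genotype the call was lost in some omissions of a library or mouse. The log2 fold change there stayed at 1.72 to 2.55 in KO and 1.59 to 2.14 in WT mice. The number of all genes called in these omissions ran from 2 to 2282 in KO and from 659 to 3610 in WT mice. With the mouse as a block Plvap passed in KO mice (2.15, edgeR adjusted p = 0.0036) and in WT mice (1.81, edgeR adjusted p = 0.00186). In KO mice the call was lost without the ipsilateral library of mouse 295 (2.19, edgeR adjusted p = 0.0663) or 300 (1.72, edgeR adjusted p = 0.0798), without any 1 of the 3 contralateral libraries (1.87 to 2.43, edgeR adjusted p = 0.0658 to 0.111), and without mouse 295 or mouse 300. In WT mice it was lost without the ipsilateral library of mouse 297 (1.76, edgeR adjusted p = 0.0615), its contralateral library (1.60, edgeR adjusted p = 0.0825), or both libraries of any of mice 295, 296, 297 and 474. Plvap overlaps Gtpbp3 on the opposite strand without sharing an exon, and Gtpbp3 itself had 230 to 390 counts per library.

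The drug efflux pump Abcb1a had 95.9, 109 and 69.4 TPM in ipsilateral libraries of KO mice 295, 298 and 300, against 120, 157 and 205 TPM in the KO contralateral ones. In the WT ipsilateral libraries of mice 296, 297 and 474 it had 83.1, 81.9 and 66.8 TPM, against 94.4, 204 and 119 TPM in the WT contralateral ones. The hemispheres did not overlap within either genotype, although the highest ipsilateral level, in KO mouse 298, exceeded the lowest contralateral level, in WT mouse 296. Abcb1a fell by 0.88 ± 0.26 on the log2 scale in WT mice (SE, edgeR adjusted p = 0.036) and by 0.77 ± 0.18 in the average (edgeR adjusted p = 0.00871), with ipsilateral levels lower in 6 of 6 mice. In KO mice the difference was -0.66 ± 0.26 (edgeR adjusted p = 0.14). The WT call was lost without any 1 WT ipsilateral library, without the WT contralateral library of mouse 297 (-0.54, edgeR adjusted p = 0.154) or 474, and without the KO ipsilateral library of mouse 295 or the KO contralateral library of mouse 298, which share the estimate of spread. It was also lost without both libraries of mouse 297 (-0.61, edgeR adjusted p = 0.218), 474 (edgeR adjusted p = 0.135), 298 (edgeR adjusted p = 0.063) or 295 (edgeR adjusted p = 0.0544). Leaving out mouse 300 ended the call in the average (-0.61, edgeR adjusted p = 0.0577).

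The organic anion carrier Slco1a4 followed Abcb1a closely from library to library. It had 88.5, 167 and 64.7 TPM in ipsilateral libraries of KO mice 295, 298 and 300, against 123, 206 and 244 TPM in the KO contralateral ones. In the WT ipsilateral libraries of mice 296, 297 and 474 it had 97.8, 89.4 and 61.8 TPM, against 120, 220 and 125 TPM in the WT contralateral ones. The WT hemispheres did not overlap, while in KO mice the ipsilateral library of mouse 298 lay above the contralateral library of mouse 295. Slco1a4 fell by 0.81 ± 0.24 on the log2 scale in the average (SE, edgeR adjusted p = 0.0238), lower in 6 of 6 mice. The difference was -0.70 ± 0.34 in KO mice (edgeR adjusted p = 0.214) and -0.93 ± 0.34 in WT mice (edgeR adjusted p = 0.0792). The average was not called without any 1 of the KO ipsilateral libraries of mice 295 and 300, the KO contralateral libraries of mice 298 and 300 and the WT contralateral library of mouse 297 (-0.67 to -0.79, edgeR adjusted p = 0.053 to 0.064), nor without mouse 297, 300 or 474.

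Ocln, the second transmembrane junction gene, had 35.6, 34.6 and 23.8 TPM in ipsilateral libraries of KO mice 295, 298 and 300, against 48.3, 54.3 and 62.1 TPM in the KO contralateral ones. In the WT ipsilateral libraries of mice 296, 297 and 474 it had 29.9, 27.9 and 36.8 TPM, against 31.7, 65.4 and 36.4 TPM in the WT contralateral ones. The KO hemispheres were apart, and in WT mice only the contralateral library of mouse 297 stood well above the ipsilateral ones. Ocln fell by 0.60 ± 0.15 on the log2 scale in the average (SE, edgeR adjusted p = 0.012), lower in 6 of 6 mice in CPM, which no longer passed when mouse 300 was left out (-0.50, edgeR adjusted p = 0.0812). The difference was -0.66 ± 0.22 in KO mice (edgeR adjusted p = 0.0874) and -0.54 ± 0.22 in WT mice (edgeR adjusted p = 0.103).

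Counting genes whose hemispheres did not overlap in CPM within a genotype, Plvap was the 1 of 10 apart on the higher side in KO mice, against 18.6% of all genes, and Ocln and Abcb1a were apart on the lower side, against 20.2%. In WT mice Plvap was again the 1 apart on the higher side, against 17.3% of all genes, and Abcb1a and Slco1a4 were apart on the lower side, against 16.6%. Ocln, Mfsd2a, Abcb1a and Slco1a4 were lower ipsilaterally in all 6 mice, 4 of the 10 against 19.5% of all genes.

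**Figure D2:**
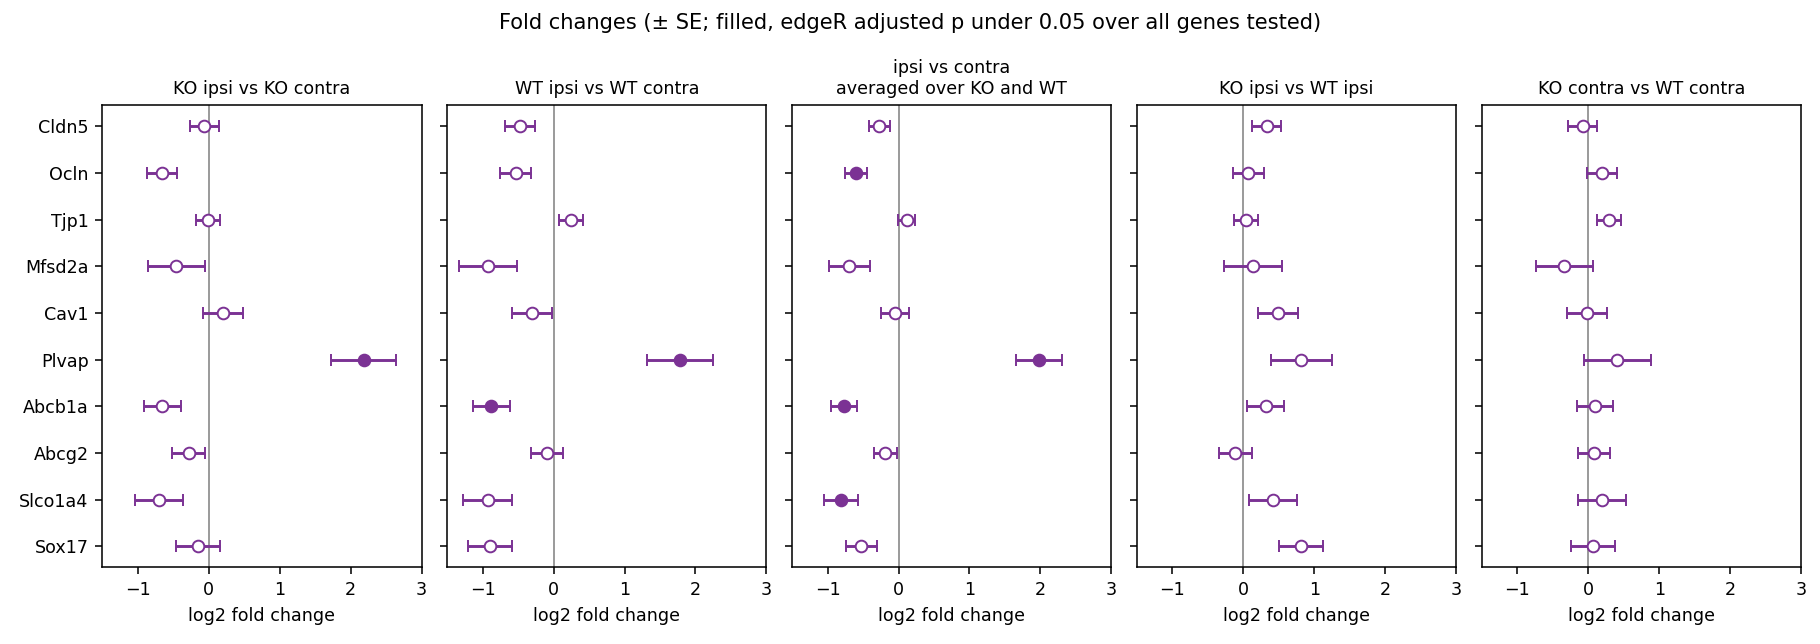
Log2 fold changes (horizontal axes) with their SE for the 10 genes in 5 comparisons, filled where the edgeR adjusted p over all genes tested was under 0.05. Plvap is the 1 gene filled on the right in the 3 comparisons of hemispheres, Abcb1a is filled on the left in WT mice, and Abcb1a, Slco1a4 and Ocln are filled on the left in the average, while no gene is filled between KO and WT mice.

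Promoter sequence is shown for 2 genes that fell and whose RefSeq start lies close to the GENCODE M21 start, Slco1a4 and Ocln. Mfsd2a and Cldn5 are shown beside them. These did not pass in the fit by group, but both fell in the average with the mouse as a block, as given below. Each line gives the 250 bases before the RefSeq start (GRCm38.p6), 5' to 3' on the gene's strand, at chr6:141856221-141856470 (minus strand) for Slco1a4, chr13:100552719-100552968 (minus) for Ocln, chr4:122961189-122961438 (minus) for Mfsd2a and chr16:18776597-18776846 (plus) for Cldn5. Capitals mark the motifs searched.
Slco1a4: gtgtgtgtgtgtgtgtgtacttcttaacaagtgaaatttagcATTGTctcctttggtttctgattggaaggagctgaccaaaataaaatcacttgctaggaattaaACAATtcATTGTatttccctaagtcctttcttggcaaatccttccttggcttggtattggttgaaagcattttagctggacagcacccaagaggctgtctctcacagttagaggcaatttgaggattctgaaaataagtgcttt
Ocln: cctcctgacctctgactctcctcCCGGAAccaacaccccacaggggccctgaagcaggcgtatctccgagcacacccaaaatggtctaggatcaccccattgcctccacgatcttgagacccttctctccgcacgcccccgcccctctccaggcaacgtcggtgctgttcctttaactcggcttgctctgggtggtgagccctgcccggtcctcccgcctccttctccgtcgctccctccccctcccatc
Mfsd2a: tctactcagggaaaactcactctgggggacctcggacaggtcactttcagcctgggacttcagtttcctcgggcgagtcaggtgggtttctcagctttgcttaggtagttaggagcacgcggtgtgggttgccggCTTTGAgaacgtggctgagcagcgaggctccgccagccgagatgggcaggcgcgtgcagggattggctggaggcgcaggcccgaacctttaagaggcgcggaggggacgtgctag
Cldn5: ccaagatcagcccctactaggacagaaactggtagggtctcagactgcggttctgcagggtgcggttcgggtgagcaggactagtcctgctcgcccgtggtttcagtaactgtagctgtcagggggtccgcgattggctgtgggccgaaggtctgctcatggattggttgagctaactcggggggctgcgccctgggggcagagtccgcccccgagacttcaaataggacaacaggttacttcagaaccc

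Motifs were searched on both strands. The core of the TCF/LEF factors, which act in the Wnt pathway, was CTTTGA. The SOX core was ACAAT, the ETS core was CCGGAA and the GATA core was AGATAA. Slco1a4 held 3 SOX cores, which start 208, 144 and 137 bases before the RefSeq start and overlap no other motif searched. Ocln held 1 ETS core, 227 bases before the start shown, Mfsd2a held 1 TCF/LEF core, 115 bases before its start, and Cldn5 held none of the 4. A further RefSeq start of Ocln, with its window at chr13:100552499-100552748, held none of the 4 either and is not shown. Of all 32851 RefSeq windows of this length, 27.7% held the SOX core, 12% the ETS core, 13.8% the TCF/LEF core and 9.99% the GATA core. A match is a description of letters and not a site of binding. The RefSeq table matched 8 of the 10 genes, without Plvap and Sox17, and its only window for Abcb1a lies far upstream of the gene's GENCODE start and is not shown.

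The other 6 genes were lower or little different on the ipsilateral side, and none was called in the fit by group. Cldn5, the main barrier claudin, had 477, 368 and 379 TPM in ipsilateral libraries of KO mice 295, 298 and 300, against 427, 462 and 550 TPM in the KO contralateral ones. It had 403, 379 and 249 TPM in the WT ipsilateral libraries of mice 296, 297 and 474, against 469, 553 and 377 TPM in the WT contralateral ones. The hemispheres overlapped in both genotypes, and the average log2 fold change was -0.27 ± 0.14 (SE, edgeR adjusted p = 0.171), lower in 5 of 6 mice. With the mouse as a block the WT difference of -0.50 (edgeR adjusted p = 0.0248) and the average of -0.28 (edgeR adjusted p = 0.0419) passed.

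Mfsd2a, the lipid carrier, had 237, 411 and 350 TPM in ipsilateral libraries of KO mice 295, 298 and 300, against 372, 556 and 625 TPM in the KO contralateral ones. It had 518, 249 and 203 TPM in the WT ipsilateral libraries of mice 296, 297 and 474, against 922, 422 and 444 TPM in the WT contralateral ones. The hemispheres overlapped between mice in both genotypes, yet within each of the 6 mice the ipsilateral library was lower, and both libraries of mouse 296, the mouse with the male pattern, were the highest of their WT group. The log2 fold change was -0.69 ± 0.29 in the average (SE, edgeR adjusted p = 0.0833), -0.46 ± 0.41 in KO and -0.93 ± 0.41 in WT mice. With the mouse as a block Mfsd2a passed in KO mice (-0.47, edgeR adjusted p = 0.0479), in WT mice (-0.96, edgeR adjusted p = 0.00204) and in the average (-0.71, edgeR adjusted p = 0.000858). Without the WT ipsilateral library of mouse 296 it also passed in WT mice (-1.43, edgeR adjusted p = 0.0287) and in the average (-0.94, edgeR adjusted p = 0.0172).

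Sox17, the transcription factor, had 33.2, 21.7 and 25.9 TPM in ipsilateral libraries of KO mice 295, 298 and 300, against 29.0, 29.3 and 42.6 TPM in the KO contralateral ones. It had 14.5, 20.9 and 13.3 TPM in the WT ipsilateral libraries of mice 296, 297 and 474, against 18.0, 45.8 and 25.2 TPM in the WT contralateral ones. It was lower ipsilaterally in 5 of 6 mice, the exception being KO mouse 295, and the hemispheres overlapped in both genotypes. The log2 fold change was -0.15 ± 0.31 in KO mice (SE, edgeR adjusted p = 0.783), -0.90 ± 0.31 in WT mice (edgeR adjusted p = 0.0651) and -0.52 ± 0.22 in the average (edgeR adjusted p = 0.0855). The block by mouse brought Sox17 past the threshold in WT mice (-0.84, edgeR adjusted p = 0.0104) and in the average (-0.50, edgeR adjusted p = 0.0147), as did leaving out the WT contralateral library of mouse 296 (-1.15 and -0.65, edgeR adjusted p = 0.0179 and 0.0245).

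Cav1, Tjp1 and Abcg2 showed no called difference in any fit. Cav1 averaged 46.5 ± 11 TPM in KO ipsilateral against 46.4 ± 8.81 TPM in KO contralateral libraries, and 36.1 ± 8.10 TPM in WT ipsilateral against 43.4 ± 14.8 TPM in WT contralateral ones (SD, n = 3 each). Tjp1 averaged 126 ± 30.4 TPM in KO ipsilateral against 141 ± 12.9 TPM in KO contralateral libraries, and 129 ± 15.3 TPM in WT ipsilateral against 106 ± 25.6 TPM in WT contralateral ones. Abcg2, the second efflux pump, averaged 17.0 ± 1.81 TPM in KO ipsilateral against 23.4 ± 6.70 TPM in KO contralateral libraries, and 19.7 ± 4.12 TPM in WT ipsilateral against 20.4 ± 4.11 TPM in WT contralateral ones. These groups overlapped for all 3 genes, and their average log2 fold changes lay between -0.19 and 0.12. Over all 10 genes, the block by mouse raised the number called to 2 in KO mice (Plvap and Mfsd2a), 6 in WT mice and 7 in the average, where it also raised the share of all genes called to 16%, 29.8% and 42.6%. DESeq2 in place of edgeR called 2, 4 and 5 of the 10, where it called 13.2%, 24.6% and 37.6% of all genes. The block brought Slco1a4 past the threshold in WT mice (-0.92, edgeR adjusted p = 0.0405).

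The amount of endothelial RNA in the libraries was read from the pan-endothelial list, whose genes could also change per cell, which was not tested. Its mean was 6.73 ± 0.42 log2 CPM in KO ipsilateral libraries and 6.43 ± 0.31 in KO contralateral ones, and 6.58 ± 0.16 in WT ipsilateral libraries and 6.49 ± 0.24 in WT contralateral ones (SD, n = 3 each). The difference was 0.30 in KO mice (exact permutation p = 0.4, two-sided), 0.09 in WT mice (exact permutation p = 0.6) and 0.19 in the average (exact permutation p = 0.275), where 3 libraries against 3 cannot give a p below 0.1. Within mice the list mean was higher in the ipsilateral library in 5 of 6 mice, all but WT mouse 297, and exact sign flips within mice gave p = 0.0625 in the average, 0.25 in KO mice and 0.5 in WT mice (two-sided), where 3 mice cannot give a p below 0.25. The direction of the list mean was opposite to that of Ocln, Abcb1a and Slco1a4. Of its 20 genes, 5 rose and 1, Itm2a, fell in the average, against 33.2% of all genes called. None passed in KO mice or in WT mice alone, against 6.29% and 19.2% of all genes. The list's median log2 fold change was 0.28 in the average, against -0.03 over all genes. Those that rose included Kdr, the main VEGF receptor (log2 fold change 0.64 ± 0.16, edgeR adjusted p = 0.0109), Eng, a coreceptor of the TGF-beta family (0.75 ± 0.22, edgeR adjusted p = 0.0242), Cd34 (0.46 ± 0.14, edgeR adjusted p = 0.0237) and Emcn (0.61 ± 0.20, edgeR adjusted p = 0.0364).

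Each gene was therefore also set per 1000 counts of the pan-endothelial list. Plvap stood at 3.30 ± 1.06 in KO ipsilateral against 0.920 ± 0.387 in KO contralateral libraries, and at 2.12 ± 0.543 in WT ipsilateral against 0.685 ± 0.366 in WT contralateral ones (SD, n = 3 each). Abcb1a stood at 55.2 ± 21.7 in KO ipsilateral against 97.0 ± 10.1 in KO contralateral libraries, and at 43.4 ± 0.724 in WT ipsilateral against 84.0 ± 20.4 in WT contralateral ones. Cldn5 stood at 63.8 ± 12.2 in KO ipsilateral against 79.1 ± 8.44 in KO contralateral libraries, and at 51.2 ± 7.70 in WT ipsilateral against 77.0 ± 4.89 in WT contralateral ones. Because the list's own share of the counts was higher ipsilaterally in 5 of 6 mice, dividing by it lowers the ipsilateral value of every gene alike in those mice: of all genes tested, 27.4% were lower ipsilaterally in all 6 mice on this scale and 8.93% were higher, against 19.5% and 19% in CPM. On this scale Plvap was higher ipsilaterally in 6 of 6 mice, and Cldn5, Ocln, Mfsd2a, Abcb1a, Slco1a4 and Sox17 were lower in 6 of 6, which is given as a description. Cav1 and Abcg2 were lower in 5 of 6 mice, and Tjp1 in 3.

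With the pan-endothelial mean as a covariate of the fit, 5 of the 10 genes passed in the average, as did 22.7% of all genes. Plvap rose by 1.73 (edgeR adjusted p = 0.00529), and Abcb1a (-0.84, edgeR adjusted p = 0.00908), Ocln (-0.63, edgeR adjusted p = 0.017), Slco1a4 (-0.83, edgeR adjusted p = 0.0409) and Sox17 (-0.72, edgeR adjusted p = 0.0132) fell. In WT mice Plvap, Abcb1a and Sox17 passed (Sox17 at -0.97, edgeR adjusted p = 0.0171), against 16.9% of all genes. In KO mice none did, against 0.963%, and Plvap stood at 1.79 (edgeR adjusted p = 0.0964).

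**Figure D3:**
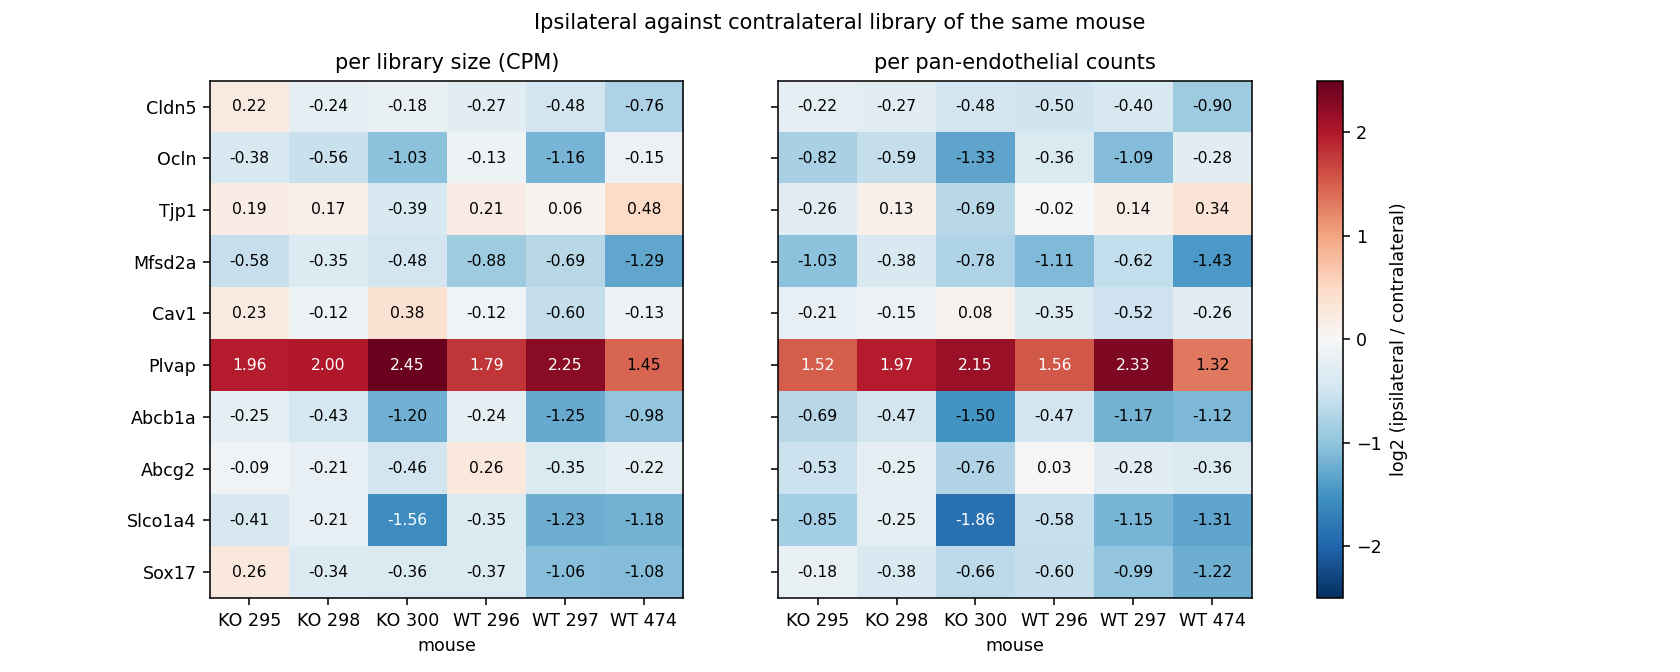
Log2 ratio of the ipsilateral to the contralateral library of the same mouse (colour scale and printed values), genes down and mice across, from CPM on the left and per counts of the pan-endothelial list on the right. The Plvap row runs from 1.45 to 2.45 on the left, and on the right, where 27.4% of all genes tested are negative in all 6 mice, so are the rows of Cldn5, Ocln, Mfsd2a, Abcb1a, Slco1a4 and Sox17.

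Other cell types also differed between the libraries, and their part in these results was not tested. The oligodendrocyte list mean was 9.19 to 9.72 log2 CPM in KO ipsilateral against 8.21 to 8.91 in KO contralateral libraries, and 9.86 to 10.52 in WT ipsilateral against 9.72 to 10.15 in WT contralateral ones. With that mean as a covariate, Plvap was the 1 of 10 genes called in WT mice (1.74, edgeR adjusted p = 0.03) and in the average (1.75, edgeR adjusted p = 0.0291), none was called in KO mice, against 17.7%, 12.2% and 0.00642% of all genes, and in the average Abcb1a had -0.70 (edgeR adjusted p = 0.103), Ocln -0.50 (edgeR adjusted p = 0.135) and Slco1a4 -0.63 (edgeR adjusted p = 0.242). The astrocyte list mean was 9.98 to 10.54 log2 CPM in KO ipsilateral against 10.50 to 10.66 in KO contralateral libraries, and 9.09 to 9.32 in WT ipsilateral against 10.03 to 10.37 in WT contralateral ones, and 8 of its 10 genes fell in WT mice, against 9.54% of all genes. Of 10 pericyte markers, genes of the cells that wrap capillaries, none passed in KO mice and 7 fell in WT mice, where the list mean was 5.17 to 5.48 log2 CPM ipsilaterally against 5.72 to 6.07 contralaterally. The choroid plexus list, markers of the epithelium that makes cerebrospinal fluid, had a mean of 3.64 to 4.91 log2 CPM in KO ipsilateral against 4.41 to 5.36 in KO contralateral libraries, and 5.34 to 5.68 in WT ipsilateral against 5.43 to 6.72 in WT contralateral ones. Its 8 genes had negative log2 fold changes in KO mice, in WT mice and in the average. In the average 3 passed, where 16.1% of all genes fell, among them the folate receptor gene Folr1 (-0.68 ± 0.15, edgeR adjusted p = 0.00515). None passed in KO mice or in WT mice alone, against 6.29% and 19.2% of all genes.

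**Figure D4:**
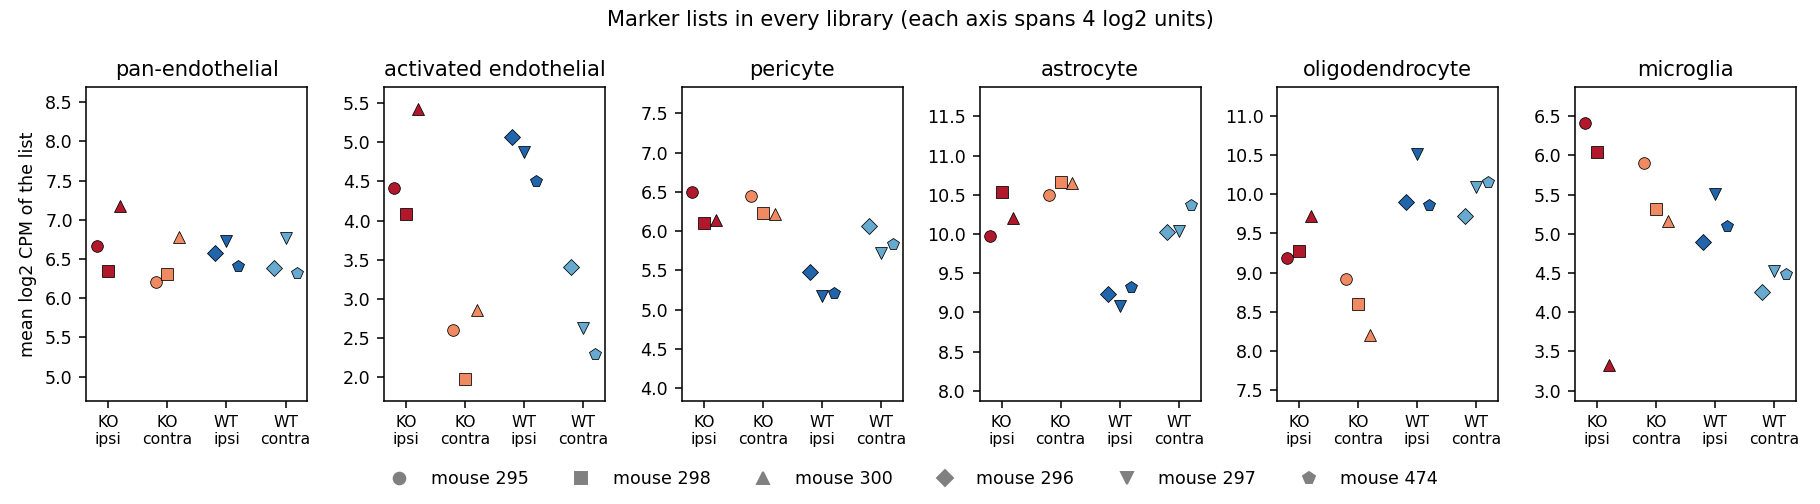
Mean log2 CPM of 6 marker lists (vertical axes, each spanning 4 log2 units) in the 12 libraries by group, 1 marker shape per mouse. The pan-endothelial panel overlaps between all groups, the activated endothelial panel is higher in all 6 ipsilateral libraries (4.09 to 5.42) than in all contralateral ones (1.98 to 3.41), and the microglial panel shows the KO ipsilateral library of mouse 300 at 3.33.

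Further genes of endothelium and of the barrier were counted by list, beside the 17.1% of all genes that rose and the 16.1% that fell in the average. These lists too were chosen with earlier results of these data known. Of 12 genes of activated endothelium, 11 were tested and 7 rose in the average, 5 in KO mice and 5 in WT mice, where 5.45% and 9.61% of all genes rose, and none fell. The list's median log2 fold change in the average was 1.58. Sele, the E-selectin that captures leukocytes, averaged 19.9 ± 14.2 CPM in KO ipsilateral against 0.379 ± 0.390 CPM in KO contralateral libraries, and 20.0 ± 3.91 CPM in WT ipsilateral against 0.305 ± 0.193 CPM in WT contralateral ones. Its log2 fold change in the average was 5.80 ± 0.49 (SE, edgeR adjusted p = 6.8e-05). Selp, the P-selectin, had 760 counts over the 3 KO ipsilateral libraries against 5 over the KO contralateral ones, and 645 over the WT ipsilateral against 7 over the WT contralateral ones. Ackr1, a chemokine-binding receptor of venules, rose by 4.02 ± 0.47 (edgeR adjusted p = 0.000274) and Icam1, a leukocyte adhesion molecule, by 1.58 ± 0.19 (edgeR adjusted p = 0.000319).

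Of 17 further junction genes none rose and 3 fell in the average, a share of fallers near the 16.1% of all genes, with a median log2 fold change of 0.08. The 3 were Tjp3 (-0.88 ± 0.22, edgeR adjusted p = 0.0104) and Cgn (-0.83 ± 0.22, edgeR adjusted p = 0.0155), both cytoplasmic junction proteins, and Jam2 (-0.40 ± 0.12, edgeR adjusted p = 0.0228), an adhesion molecule. Of 20 further transporters 5 rose and 5 fell in the average, with a median of -0.01. Those that rose included Abcb1b, a paralog of Abcb1a, and Abcc1 (0.54 ± 0.11, edgeR adjusted p = 0.00408). The fall of Abcb1a in the average was thus not shared by Abcb1b. Slc7a1, a carrier of cationic amino acids, rose by 1.30 ± 0.19 (edgeR adjusted p = 0.000713) and Slc3a2, the heavy chain of amino acid exchangers, by 0.71 ± 0.13 (edgeR adjusted p = 0.00195). The organic anion transporter Slc22a8, at 22.5 ± 6.03 CPM in KO ipsilateral against 44.1 ± 1.41 CPM in KO contralateral and 11.2 ± 2.38 CPM in WT ipsilateral against 34.0 ± 20.4 CPM in WT contralateral libraries (SD, n = 3 each), fell by 1.28 ± 0.29 (SE, edgeR adjusted p = 0.00694). Of 10 further genes of vesicle traffic 4 rose, among them Cltc, the clathrin heavy chain (0.52 ± 0.10, edgeR adjusted p = 0.00242), and 2 fell, among them the caveolar coat gene Cavin2 (named Sdpr in the files, -0.59 ± 0.16, edgeR adjusted p = 0.017), with a median of 0.28.

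Of 18 genes of endothelial Wnt signalling, ligands, receptors and targets together, none rose and 3 fell in the average, again near the 16.1% of all genes, with a median log2 fold change of -0.11. Axin2, a target gene that feeds back on the pathway, averaged 45.5 ± 4.45 CPM in KO ipsilateral against 72.6 ± 2.12 CPM in KO contralateral libraries, and 27.8 ± 5.36 CPM in WT ipsilateral against 60.0 ± 3.89 CPM in WT contralateral ones (SD, n = 3 each). It fell by 0.89 ± 0.10 (SE, edgeR adjusted p = 0.000229). Notum, a secreted Wnt inhibitor and target, fell by 1.07 ± 0.20 (edgeR adjusted p = 0.0022). These genes are not endothelial alone, and in these astrocyte preparations the cell type behind them was not tested.

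The second comparison set KO against WT mice on the ipsilateral side, asking whether the barrier genes differed with the astrocytic deletion after stroke. None of the 10 genes passed, where 6.31% of all genes did, although 9 of the 10 were higher in KO and Sox17 had an unadjusted edgeR p under 0.05, as did 21.8% of all genes. The median log2 fold change of the 10 was 0.32, and 0.02 over all genes tested. Sox17 was the nearest to the threshold, with 33.2, 21.7 and 25.9 TPM in KO ipsilateral libraries against 14.5, 20.9 and 13.3 TPM in WT ipsilateral ones, groups that did not overlap (log2 fold change 0.81 ± 0.31, edgeR adjusted p = 0.152). In CPM Abcb1a was apart as well, so that 2 of 10 genes were apart on the higher side against 13.7% of all genes, but its TPM overlapped and its log2 fold change was 0.31 ± 0.26 (edgeR adjusted p = 0.528). For Plvap it was 0.82 ± 0.43 (edgeR adjusted p = 0.303), for Cav1 0.49 ± 0.28 (edgeR adjusted p = 0.35), for Slco1a4 0.42 ± 0.34 (edgeR adjusted p = 0.524) and for Cldn5 0.33 ± 0.21 (edgeR adjusted p = 0.392).

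Mfsd2a (0.14 ± 0.41), Ocln (0.07 ± 0.22), Tjp1 (0.04 ± 0.17) and Abcg2 (-0.11 ± 0.23) lay within 1 SE of 0. No fit run called any of the 10 genes here, the fits without a library included, and DESeq2 called 11.7% of all genes. The pan-endothelial mean differed by 0.15 log2 CPM between KO and WT ipsilateral libraries (exact permutation p = 0.7). Other lists are given beside the 6.31% of all genes called on the ipsilateral side, 4.33% higher and 1.98% lower: 8 of 10 pericyte and 8 of 10 astrocyte markers were higher in KO mice at an edgeR adjusted p under 0.05, and 3 of 10 oligodendrocyte markers were lower. All 8 choroid plexus markers had negative log2 fold changes and 2 passed, among them Folr1 (-0.92 ± 0.21, edgeR adjusted p = 0.0264). Of the 17 further junction genes 1 passed: Cldn1, a claudin of epithelia, was lower in KO mice on the ipsilateral side (-2.73 ± 0.48, edgeR adjusted p = 0.0109) and on the contralateral side (-2.08 ± 0.46, edgeR adjusted p = 0.046), where 1.41% of all genes fell. Of the 18 Wnt genes 4 rose in KO ipsilateral libraries and none fell, with a median log2 fold change of 0.34 against 0.02 over all genes. Ndp, the ligand norrin, averaged 45.4 ± 9.88 CPM in KO ipsilateral against 18.2 ± 3.78 CPM in WT ipsilateral libraries (SD, n = 3 each), and Tspan12, a part of the norrin receptor complex, 30.2 ± 3.45 CPM against 18.4 ± 2.17 CPM.

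Axin2 rose by 0.71 ± 0.14 in KO over WT ipsilateral libraries (SE, edgeR adjusted p = 0.0167), Tspan12 by 0.71 ± 0.15 (edgeR adjusted p = 0.0209), Tnfrsf19 by 0.99 ± 0.26 (edgeR adjusted p = 0.0444) and Ndp by 1.32 ± 0.35 (edgeR adjusted p = 0.045). Of the alternatives and omissions run, 28 for each gene, 16 called Axin2, 17 Tspan12, 10 Tnfrsf19 and 10 Ndp.

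On the contralateral side none of the 10 genes passed between KO and WT mice, where 1.5% of all genes did. Their log2 fold changes lay between -0.34 (Mfsd2a) and 0.41 (Plvap), with a median of 0.09 against -0.00 over all genes, and the smallest edgeR adjusted p was 0.455. None of the 10 had an unadjusted edgeR p under 0.05, as 14.3% of all genes did. The pan-endothelial means differed by -0.06 log2 CPM (exact permutation p = 0.7).

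The difference between the hemisphere effects of KO and WT mice was tested as an interaction. None of the 10 genes passed (smallest edgeR adjusted p = 0.948), nor did any of the 15571 genes in edgeR, of which 4.9% had an unadjusted p under 0.05 against none of the 10. DESeq2 called none of the 10 either, but it gave an adjusted p to only 1081 genes, of which it called 1.85%. A gene without an adjusted p could not be called, so DESeq2 decides nothing for any of the 10 that had none. The interaction was positive for 7 of the 10 genes, with a median of 0.32 against 0.06 over all genes, and was widest for Sox17 at 0.74 ± 0.44. That Abcb1a passed in WT and not in KO mice therefore does not show that the 2 genotypes differed, and its interaction was 0.22 ± 0.37 on the log2 scale. The same holds for Sox17, which had -0.15 in KO and -0.90 in WT mice.

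Within groups, the 10 genes did not vary as 1 block. After subtraction of the group means, over 12 libraries that share the depth and purity of each preparation, Pearson's r with the pan-endothelial mean was 0.75 for Sox17 and for Cav1, 0.68 for Cldn5 and 0.65 for Abcg2. It was 0.49 for Plvap and 0.43 for Abcb1a, and between 0.09 and 0.25 for Ocln, Mfsd2a, Slco1a4 and Tjp1. For these last 4 genes, r with the astrocyte list ran from -0.01 (Tjp1) to 0.33 (Slco1a4). With the microglial list it ran from -0.43 (Mfsd2a) to 0.49 (Tjp1), and the cell type behind their RNA was not tested. The closest pair among the 10 was Abcb1a with Slco1a4 (r = 0.86), followed by Ocln with Tjp1 (r = 0.81). Cldn5 and Ocln, both of the tight junction, had r = 0.07. The non-member genes whose deviations were most like those of Cldn5 were Rab43 (r = 0.96), Tbx1 (0.95), Card10 (0.94), Foxf2 (0.93) and Dclre1a (0.91), followed by Tmem204, Vil1, Endov, Kcnk3 and Hbb-bs (0.87 to 0.88). They are the top of all genes tested in 12 libraries, given as a description.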

How the data were processed

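The authors deposited 1 table per library with, for each gene, a count of reads, a TPM and an RPKM, per the file headers. The build was mm10, per the submitters' processing notes; the aligner, the counter and any use of strand are not stated there or in the labels. Counts were tested, TPM gave levels, and RPKM only checked the counts against the reads it implies. edgeR 4.0.16 (R 4.3.3) fitted 1 term per group over all 12 libraries by quasi-likelihood (filterByExpr with a minimum count of 10, TMM), with Benjamini-Hochberg adjustment over 15571 genes and a threshold of 0.05. All 10 genes passed the filter. CPM was computed from the counts, with a prior count of 2 on the log2 scale. DESeq2 1.42.0, limma 3.58.1 and other filters, scalings, covariates and omissions were alternatives. The scripts were tested on simulated data.

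The mouse number in the titles pairs the hemispheres of 1 animal. Deviations from the group means of the libraries of a mouse correlated at -0.04 (mouse 297) to 0.70 (mouse 296) over 12551 genes. The fit by group was kept as the first one, and the fit with the mouse as a block is given where it changes a call and for Plvap.

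All 10 genes were named in every comparison. Of each other list, the genes with the smallest p were named, at most 4 that passed, with Abcb1b and the 10 genes most like Cldn5. The genes and lists were chosen with earlier results of these data known. Promoter windows stop at the start site, to leave out the bases transcribed from it. The Mfsd2a window shown overlaps an annotated exon of another gene, 4933421A08Rik. The targeted gene and some genes of the other lists are not reported here.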

Additional observations from a re-analysis of the deposited data

How the results depend on the processing

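Plvap in the average was called under all 10 alternatives and all 18 omissions of a library or mouse, and none of the 10 genes was called between KO and WT mice or in the interaction under any. In the interaction DESeq2 gave an adjusted p to only 1081 genes, and the others could not be called. In KO mice, where 1 gene was called, 2 were called with DESeq2 (Ocln, Plvap), with only the groups compared (Ocln, Plvap) and with the replicate block, and 0 with the pan-endothelial or the oligodendrocyte covariate. In WT mice, where 2 were called, 4 were called with DESeq2 (Slco1a4 and Sox17 added), 6 with the replicate block, and 1 with only the groups compared, with limma-trend on log2(TPM + 1) or log2(TPM + 0.1), and with the oligodendrocyte covariate. In the average, where 4 were called, 7 were called with the replicate block and 1 with the oligodendrocyte covariate. The replicate block changed no other call than those given with it. The share of all genes called moved as well. In KO mice it was 6.29% in the first fit, 13.2% with DESeq2, 16% with the block, and 0.963% and 0.00642% with the pan-endothelial and oligodendrocyte covariates. In WT mice it was 19.2%, 24.6%, 29.8%, 16.9% and 17.7% in the same order. For only the groups compared and for limma-trend this share is not given, so their counts cannot be read against it. Leaving out a library or a mouse gave 0 to 2 genes in KO mice, 0 to 4 in WT mice and 1 to 6 in the average, while the calls over all genes ran from 2 to 2282, from 659 to 3610 and from 2812 to 5793. The block, the covariates and the omissions differ in construction from the first fit, and the cause of the shifts was not tested for any setting.

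Signs turned for small differences that were not called. In KO mice Tjp1 had 0.0095 with no filter, 0.0059 with a filter of 1 CPM and 0.082 with the oligodendrocyte covariate, which also gave Mfsd2a 0.20 and Cav1 -0.13. Cav1 had -0.0071 and -0.0075 in the TPM fits and -0.13 with the pan-endothelial covariate. Between KO and WT ipsilateral libraries the TPM fits gave Ocln -0.021 and -0.022 and Tjp1 -0.054 and -0.054, and the oligodendrocyte covariate gave Ocln -0.087, Tjp1 -0.040 and Mfsd2a -0.32. The contralateral difference of the pan-endothelial mean was 0.066 on log2(TPM + 1). Over the omissions, the log2 fold changes in KO mice ran from -0.12 to 0.42 for Cav1, from -0.21 to 0.058 for Cldn5, from -0.65 to -0.22 for Mfsd2a, from -0.36 to 0.062 for Sox17 and from -0.098 to 0.16 for Tjp1. In WT mice Abcg2 ran from -0.28 to 0.054, and in the average Cav1 ran from -0.20 to 0.072. Between KO and WT ipsilateral libraries Abcg2 ran from -0.26 to 0.076, Mfsd2a from -0.12 to 0.67, Slco1a4 from -0.0073 to 0.60 and Tjp1 from -0.056 to 0.13. The pan-endothelial mean differed by -0.068 to 0.34 on the ipsilateral and by -0.23 to 0.084 on the contralateral side.

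Groups had 3 libraries, with 16 to 169 Plvap counts a library and a pan-endothelial list at 0.212 to 0.371% of counts. A gene that did not pass is thus not shown to be the same in both hemispheres or in both genotypes.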
